A study of Mus musculus with 15 samples.

Results

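The wild-type-only 3′UTR sites are crosslink sites of GFP–TTP, the GFP fusion of wild-type tristetraprolin, in macrophages treated with LPS for 1 h. They were selected on the 1 h lists themselves: a member lay in the 3′UTR of a protein-coding gene (GENCODE M21 on mm10) and had no GFP–TTP-AA site within 15 nt on the same strand. Of the 6775 3′UTR sites in the GFP–TTP list, 1586 were members, which is 23.4% (Wilson 95% interval 22.4 to 24.4), and the 6 lists of the series held 162273 sites in all regions. The other 5189 sites had a GFP–TTP-AA site within 15 nt and are called shared sites here. Members carried 1720 of the 9558 3′UTR cDNAs (18.0%) and lay in 610 of the 1295 genes with a GFP–TTP 3′UTR site.

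The study mapped RNA binding by iCLIP, a UV crosslinking and immunoprecipitation method in which the nucleotide before the start of each cDNA marks the crosslink. All 6 groups were immortalized bone marrow-derived macrophages from TTP-deficient C57BL/6 mice that carried a doxycycline-inducible retroviral transgene, holding only the coding sequence fused to GFP. The transgene encoded either TTP or TTP-AA, a mutant with alanine in place of the serines that MK2, a kinase of the stress response, phosphorylates. Every sample received doxycycline (1 µg/ml) for 6 h and UV light (300 mJ/cm2), and GFP–TTP was collected from 2, 4 and 2 libraries and GFP–TTP-AA from 2, 3 and 2 libraries after 0, 1 and 4 h of LPS (1 µg/ml). Each list is a sum over the libraries of its group, so that values have no replicate error, and intervals of shares cover counting error only. The intervals treat each site as independent, although neighboring sites of a gene share sequence, so they can be too narrow. The 1 h GFP–TTP list held 99263 cDNAs and that of GFP–TTP-AA 174397, of which 93510 were in 3′UTRs. The GFP–TTP-AA list was therefore the deeper one in 3′UTRs, and it held only sites past a false-discovery threshold, so a member is a site without a listed partner and not one shown to have no GFP–TTP-AA crosslink.

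TTP, encoded by Zfp36, is a zinc finger protein that binds AU-rich elements in 3′UTRs of short-lived mRNAs and recruits enzymes that remove the poly(A) tail. In macrophages it is best known for restricting mRNAs of cytokines such as TNF. LPS activates p38 MAPK and MK2, and phosphorylation of TTP by MK2 lowers its affinity for AU-rich elements and its contact with the decay machinery.

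The windows around the members with most cDNAs are shown first, because most of them lack the element that TTP is known for. Each is 30 nt of the mature transcript, 5′ to 3′, and the capital marks the crosslinked nucleotide. The first 6 windows are the members with 3 cDNAs, the highest count of any member, and the seventh is one of 4 Atf1 sites with 2 cDNAs that fill the first 10 places when ties are broken by the GFP–TTP cDNAs of members within 15 nt and then by position.
Ywhag: gcgggugggggauuaUcauccggugccagc
Tet2: uuauccaccgaugucCuuguaggacuauaa
Sept5: guguuccaugagcccCugggagcgggcggg
Top1: ugggaaucaguuuucAuuaaacuugaagca
Golim4: gucuacuauuuaucuCagauaaaaugcaag
Zbtb7b: cauaaaacaagugguAucggggucgggggu
Atf1: gugugugugugugugUgugugugugugugu

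The Ywhag window lay at chr5:135909895-135909924 (minus strand), 1086 nt into the 3′UTR, and the Tet2 window at chr3:133465981-133466010 (minus). Sept5 was at chr16:18621766-18621795 (minus), Top1 at chr2:160722065-160722094 (plus) and Golim4 at chr3:75877663-75877692 (minus). The Zbtb7b window lay at chr3:89379436-89379465 (minus), 76 nt into the 3′UTR, and the Atf1 window at chr15:100260316-100260345 (plus), 372 nt into the 3′UTR. Among these windows only that of Golim4, which encodes a Golgi membrane protein, held the AU-rich heptamer UAUUUAU. The Atf1 window, from the mRNA of a transcription factor of the CREB family, was a pure UG repeat, and the sites around it held 12 cDNAs.

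Further windows come from the genes with the densest clusters of members. These were chosen after their values were seen, as examples of homopolymer runs and repeats, except that Lyz2 is shown as the gene with most member cDNAs, and the last one is the leading shared site of Tnf, in which the capitals mark the AU-rich heptamer.
Gigyf1: uuuuuuuucuuuuuuUucuuuuuuuuuuuu
Heatr6: auuuccuucuucuuuUuuuuuuuuuuuuuc
Arpc2: auaguuccuaagaauUaaaaaaaaaaaaaa
Cpne3: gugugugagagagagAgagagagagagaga
Lyz2: uuauaggagaccaguUgaucuugggaaaca
Tnf: gcuuaugaaugUAUUUAUuuggaaggccgg

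The Gigyf1 window lay at chr5:137527251-137527280 (plus), Heatr6 at chr11:83783293-83783322 (plus) and Arpc2 at chr1:74267973-74268002 (plus). The Cpne3 window was at chr4:19521135-19521164 (minus), Lyz2 at chr10:117277751-117277780 (minus) and Tnf at chr17:35199646-35199675 (minus). The Tnf site had 52 cDNAs in the GFP–TTP list at 1 h, against at most 3 at any member.

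Members rested on few cDNAs each. Of the 1586 members, 1458 (91.9%) had 1 cDNA, 122 had 2 and 6 had 3, with a mean of 1.08, whereas 79.0% of the shared sites had 1 cDNA and the highest had 77 (mean 1.51). Members within 15 nt of each other formed 680 clusters, of which 100 held a single site and the largest in cDNAs held 12. The cDNAs were also spread over many genes: the 10 genes with most of them held 94 cDNAs (5.47% of all member cDNAs), against 2390 cDNAs (30.5%) in the 10 leading genes of the shared sites. The median distance to the nearest GFP–TTP-AA site was 340.5 nt (quartiles 74.00 and 4569), 306 members (19.3%) had one at 16 to 50 nt, and 391 (24.7%) had none within 5000 nt. Only 50 members (3.15%) lay within 15 nt of a shared site.

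At the edge of the definition, 65 members had their nearest GFP–TTP-AA site at 16 to 20 nt and 114 shared sites had it at 11 to 15 nt, with means of 1.06 and 1.04 cDNAs per site. The leading sites just inside were a pair in Arpc2 at 20 and 19 nt and one in Ccnd1 at 20 nt, each with 2 cDNAs. The leading sites just outside were in Zfp36 at 14 nt, Tfrc at 11 nt and Tram1 at 14 nt, also with 2 cDNAs each.

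The AU-rich pentamer AUUUA was found near few of the members. It lay wholly within 20 nt of the site in the sense strand of the transcript for 187 members in 93 genes, 11.8% (interval 10.3 to 13.5), against 45.7% of the shared sites (44.3 to 47.0) and 34.6% of the GFP–TTP-AA 3′UTR sites. In windows of the same 41 nt around every position of the host genes' longest 3′UTRs the share was 6.71%, and over all 21028 genes it was 6.54%. Thus the share among the members lay above that of 3′UTR sequence at large and far below that of the shared sites. Shared sites lie by definition close to a GFP–TTP-AA site, and the GFP–TTP-AA sites were themselves often near AUUUA. A difference in this direction between members and shared sites can therefore come from the selection itself, for every AU-rich motif given here. Its part was not tested. The longer motifs, which contain the pentamer, gave the same order, with UAUUUAU near 4.35% of members and 27.4% of shared sites, and UUAUUUAUU near 1.64% and 10.3%. The order was the same in subsets, which keep the same selection and so are no independent check of it. Among sites with 1 cDNA the pentamer was near 11.6% of members and 43.8% of shared sites. In the 146 genes that held both kinds of site it was near 7.36% and 32.3%. By distance to the nearest GFP–TTP-AA site, the pentamer was near 11.4% of the members at 16 to 50 nt (8.34 to 15.5), 8.98% at 51 to 500 nt (6.91 to 11.6) and 14.3% beyond 500 nt (11.9 to 17.0). The heptamer was near 5.23%, 1.90% and 5.99% of these members, so that both were most frequent beyond 500 nt and least frequent at 51 to 500 nt.

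**Figure D1:**
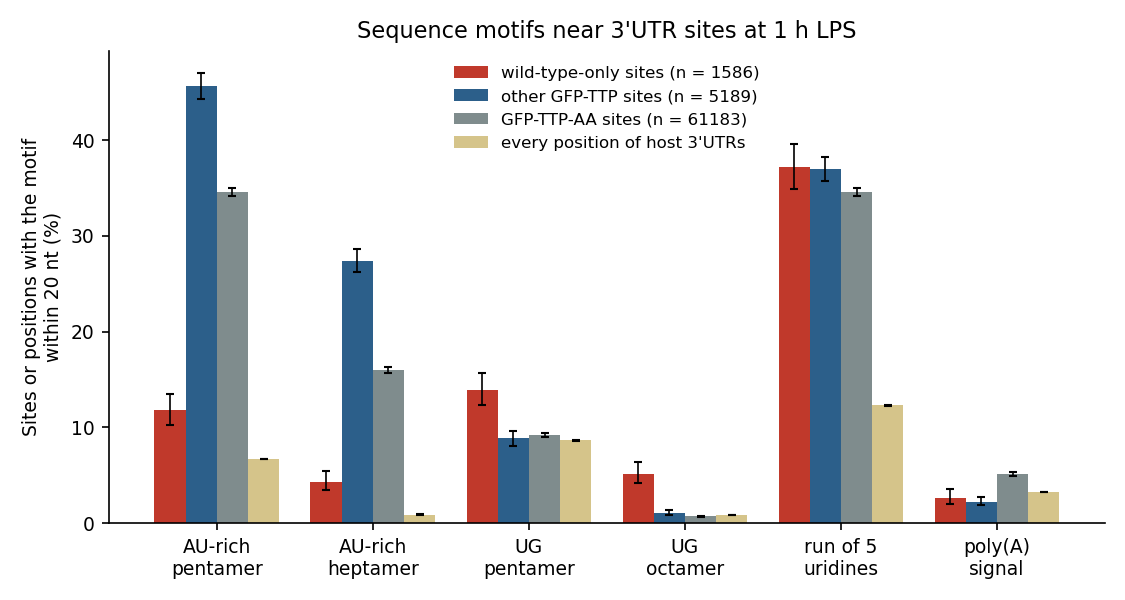
Share of sites or positions with each motif wholly within 20 nt, in percent, for the wild-type-only sites, the shared (other GFP–TTP) sites, the GFP–TTP-AA 3′UTR sites and every position of the host genes' longest 3′UTRs; error bars are Wilson 95% intervals. The AU-rich pentamer was near 11.8% of wild-type-only and 45.7% of shared sites, whereas the UG pentamer was near 13.9% and 8.85%.

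UG-rich sequence was found near more of the members than of the shared sites. UGUGU lay near 221 members in 89 genes (13.9%, interval 12.3 to 15.7), 8.85% of the shared sites, 9.23% of the GFP–TTP-AA sites and 8.67% of the host positions. The octamer UGUGUGUG, which holds the pentamer, lay near 82 members (5.17%), 1.10% of the shared sites and 0.823% of the host positions. These 82 sites came from only 25 genes, led by Atf1 with 8 sites, the ubiquitin ligase gene Trim25 with 6, and Arf3, Bend4, Cpne3 and Irgq with 5 each. In the genes that held both kinds of site the octamer was near 4 of 435 members (0.920%, 0.358 to 2.34) and 13 of 1198 shared sites (1.09%, 0.635 to 1.85). The higher share among members was thus not seen for the octamer within these genes, where it rested on few sites. UGUGU kept its order there, near 10.8% of members (8.22 to 14.1) and 7.18% of shared sites (5.85 to 8.78), with overlapping intervals. Both AUUUA and UGUGU were near 15 members.

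Runs of 5 uridines were about as frequent near members as near shared sites over all genes. UUUUU lay near 37.2% of members, 37.0% of shared sites and 34.6% of GFP–TTP-AA sites, all above the 12.3% of host positions. In the genes with both kinds of site, UUUUU was near fewer members, 27.4% (23.4 to 31.7), than shared sites, 38.8% (36.1 to 41.6). The crosslinked nucleotide was a uridine at 64.3% of members and 63.6% of shared sites, against 30.9% of the bases in the host 3′UTRs. The windows around members held 40.1% U and 20.2% G, and those around shared sites 44.8% U and 16.7% G. None of the AU-rich, UG and U pentamers was near 722 members (45.5%), against 24.7% of shared sites. The poly(A) signal AAUAAA was near 2.65% of members, 2.25% of shared and 5.13% of GFP–TTP-AA sites, beside 3.27% of host positions, and GGGG was near 8.20%, 9.23%, 5.32% and 9.23%, respectively.

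The 3 most frequent octamers near members, among those in at least 10 genes, were UUUUUUUU (294 sites in 94 genes, 18.5%), CUUUUUUU (142 sites) and UUUUUUUC (116 sites). Near the shared sites they were UAUUUAUU (1010 sites, 19.5%), UUAUUUAU (738 sites) and UUUUUUUU (726 sites). UAUUUAUU, the leading octamer of the shared sites, was near 38 members (2.40%). AAAAAAAA was near 80 members (5.04%) and 86 shared sites (1.66%).

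Members were found near simple repeats more often than shared sites were. A simple repeat was defined, after the windows had been seen, as a run of at least 8 of 1 base or at least 5 units of a dinucleotide within 20 nt. Such a repeat was near 472 members in 151 genes, 29.8% (27.6 to 32.1), against 17.4% of shared sites (16.4 to 18.4), 11.4% of GFP–TTP-AA sites and 3.87% of host positions. Runs of U were near 294 of 1586 members (18.5%) and 726 of 5189 shared sites, runs of A near 5.04% and 1.66%, and UG units near 4.92% and 0.925%. In the genes with both kinds of site, however, the shares were close, with 21.4% of members (17.8 to 25.5) and 22.9% of shared sites (20.6 to 25.3) near a repeat. Runs of A kept their order there, near 28 of 435 members in 8 genes (6.44%) and 15 of 1198 shared sites in 9 genes (1.25%), so this rested on few sites.

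The repeats went with the larger clusters. Of the 29 clusters with at least 5 members, 21 (72.4%) held a simple repeat, compared with 80 of 188 with 3 or 4 members, 44 of 363 with 2 and 7 of 100 with 1. Every site had a single cDNA in 79.3% of the clusters with at least 5 members, 89.4% of those with 3 or 4 and 88.7% of those with 2. The Gigyf1 cluster, in the mRNA of a GYF domain protein that takes part in translational repression, held 7 members with 1 cDNA each within 10 nt of a U-rich tract. Nufip2 held 8 within 9 nt, Trim25 held 6 within 9 nt and Heatr6 held 6 within 6 nt. Spacing between neighboring members of a cluster followed the repeat unit. Neighbors were 2 nt apart in 44 of 56 cases (78.6%) near UG units, and 1 nt apart in 167 of 200 cases (83.5%) near runs of U, whereas without a repeat 41.7% were 1 nt and 9.61% were 2 nt apart.

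**Figure D2:**
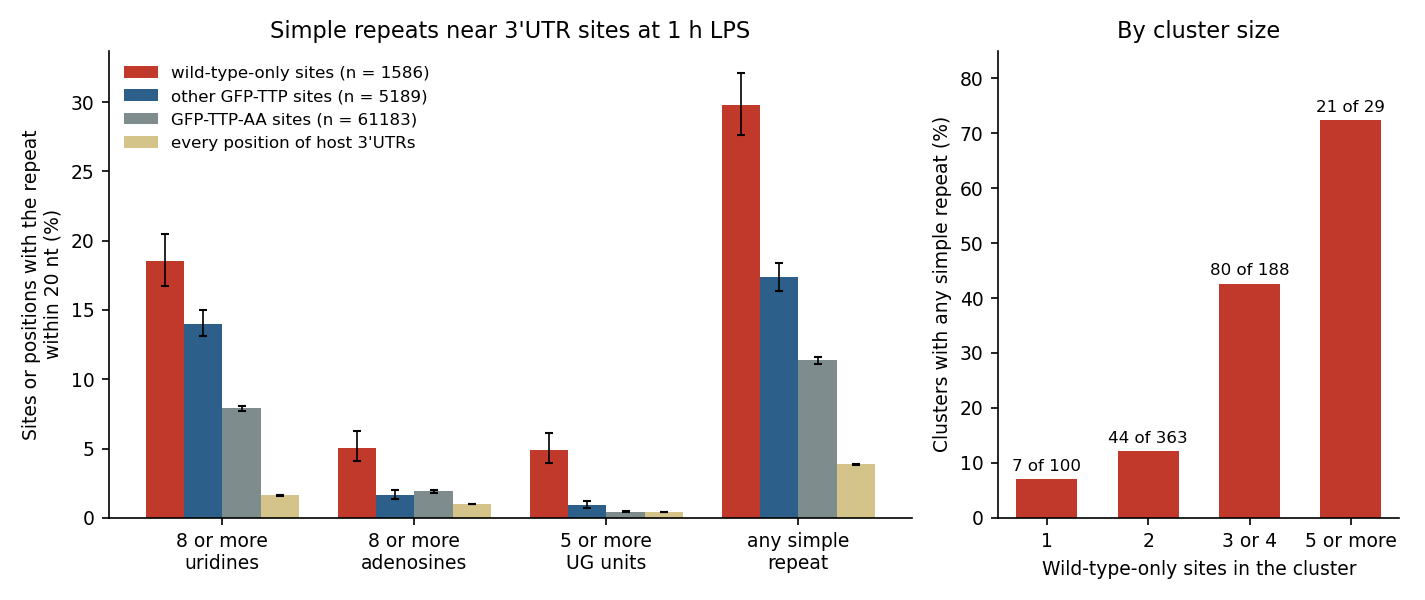
Left, share of sites or positions with a simple repeat within 20 nt, in percent, for the same 4 sets, with Wilson 95% intervals; right, share of member clusters that hold any simple repeat, in percent, by the number of members in the cluster, with counts above the bars. Any simple repeat was near 29.8% of wild-type-only and 17.4% of shared sites, and 21 of the 29 clusters with at least 5 members held one.

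Some members lay in sequence that occurs in other genes. The 30 nt downstream of the site also occurred in a transcript of another annotated gene model for 48 of 1580 members (3.04%, interval 2.30 to 4.00) in 23 genes and for 1.76% of the shared sites (1.44 to 2.16). Of the 48, 27 were near a simple repeat. For 15 of the 48 the other model lay over the site itself, as in Sept2, annotated as a pair of gene models with that name, and in Sept5, whose site with 3 cDNAs also lay in Gp1bb. Without these, 33 members (2.09%, 1.49 to 2.92) in 17 genes and 1.05% of the shared sites (0.803 to 1.36) had a copy elsewhere. Among those Atf1 had most members with 5, whose sequence occurred in Trim25 and Il17ra among others. For 1 of the Lyz2 sites the other gene was Lyz1, its paralog. The gene assignment of these members is uncertain to that extent, and the part of repeats and copies in the selection of members was not tested. A further 5 members lay in an exon of an annotated non-coding gene and 10 in the coding sequence of another transcript.

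Within the 3′UTR, members were rarer at the 3′ end than the shared sites. The last 100 nt held 72 members (4.54%, interval 3.62 to 5.68), against 15.3% of shared sites (14.4 to 16.3) and 18.2% of GFP–TTP-AA sites. Since the last 100 nt made up 3.94% of the host genes' longest 3′UTRs, the members were close to the share that length alone gives. The median distance to the annotated end was 929.0 nt for members and 419.0 nt for shared sites. Host 3′UTRs were also longer, with a median of 2060 nt, against 1319 nt in the 685 GFP–TTP target genes without a member. The order at the 3′ end was the same within genes that held both kinds of site, with 4.37% of members and 13.1% of shared sites in the last 100 nt. Shared sites lie by definition close to a GFP–TTP-AA site, and those sites were themselves frequent in the last 100 nt. A difference in this direction can therefore come from the selection itself, also within these genes, and its part was not tested. At the other end, the first 300 nt held 24.5% of members, 36.2% of shared sites and 11.8% of the host positions.

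**Figure D3:**
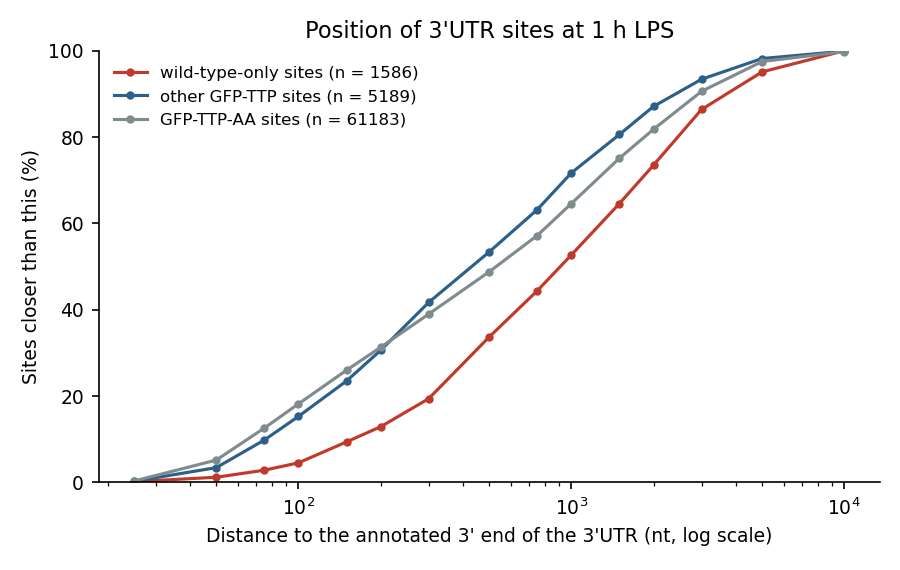
Cumulative share of sites, in percent, against the distance to the annotated 3′ end of the 3′UTR in nt on a log scale, for wild-type-only, shared (other GFP–TTP) and GFP–TTP-AA sites. The wild-type-only sites lie to the right of both other sets, with 4.54% of them in the last 100 nt against 15.3% and 18.2%.

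Whether members were found again was asked of the 0 h and 4 h lists, which the selection did not use. A GFP–TTP site of 0 h lay within 15 nt of 34 members in 13 genes (2.14%, interval 1.54 to 2.98) and of 34.7% of the shared sites (33.5 to 36.1). For GFP–TTP-AA at 0 h the shares were 1.95% of members and 24.1% of shared sites, for GFP–TTP at 4 h 0.694% and 12.9%, and for GFP–TTP-AA at 4 h 0.126% and 10.8%. Members were therefore found again far less often than shared sites in every list, in wild-type and mutant alike. By definition, however, shared sites already had a partner in another list, that of GFP–TTP-AA at 1 h, and members had none. A difference in this direction can thus come from the selection itself, and its part was not tested. Any of the 4 lists held a site near 70 members (4.41%) in 26 genes and near 45.3% of shared sites. Sites with 1 cDNA gave the same order at 0 h, with 2.19% of members and 30.1% of shared sites near a GFP–TTP site. The 4 h lists were shallow in 3′UTRs, with 906 cDNAs for GFP–TTP and 1000 for GFP–TTP-AA, and the headers of the 1 h lists named a region setting that those of 0 h and 4 h did not, so shares are compared within a list and not between lists.

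The members found again were largely those at simple repeats: 50 of the 70 (71.4%, interval 59.9 to 80.7) were near one, against 27.8% of the members not found again. Since neighboring sites share a repeat, the count over genes is given too, which was 16 of 26 (61.5%, 42.5 to 77.6). Among shared sites the counts were 448 of 2353 and 454 of 2836. At 0 h the leading member with a GFP–TTP site nearby was in the U run of Heatr6 at chr11:83783307-83783312, where 6 members with 7 cDNAs faced 5 GFP–TTP cDNAs and 0 GFP–TTP-AA cDNAs at 0 h. The other was in Stt3a, which encodes a catalytic subunit of the oligosaccharyltransferase, with 2 cDNAs at 1 h and 1 at 0 h. At 4 h it was the chemokine gene Cxcl12, with 1 member of 2 cDNAs and 3 GFP–TTP cDNAs at 4 h, followed by Cpne3 with 5 members and 6 GFP–TTP cDNAs. Outside that ranking, Alkbh5 (5 members, all near a U run), encoding an RNA demethylase, had 4 GFP–TTP cDNAs at 0 h, and Mcmbp (5 members, all near a U run) had 6 at 4 h. The reverse was seen as well: the U run of Calm3, a calmodulin gene, held 4 members at 1 h and 7 GFP–TTP-AA but no listed GFP–TTP cDNAs at 0 h, and that of Irf2bp2 held 4 members and 5 GFP–TTP-AA cDNAs. These last 4 genes were named after their values were seen.

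**Figure D4:**
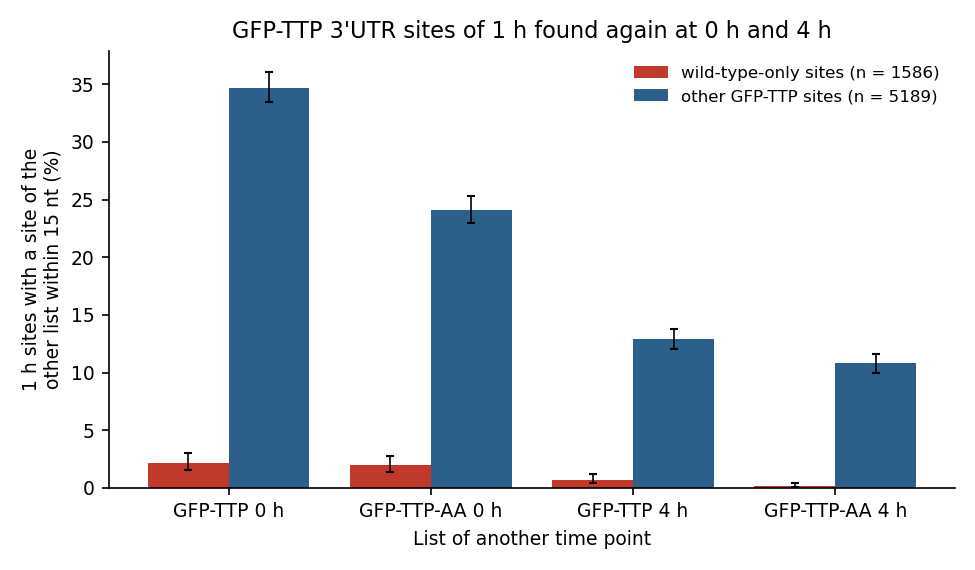
Share of 1 h GFP–TTP 3′UTR sites, in percent, with a site of the named list within 15 nt, for wild-type-only and shared sites; error bars are Wilson 95% intervals. Wild-type-only sites stay between 0.126% and 2.14%, and shared sites between 10.8% and 34.7%.

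The same contrast of GFP–TTP and GFP–TTP-AA was then tested for whole 3′UTRs at 0 h and 4 h with a two-sided Fisher exact test per gene, adjusted by the Benjamini-Hochberg method over all genes with at least 10 cDNAs over both lists. The test compares pooled lists, not conditions. At 0 h, 74 of 241 genes passed (30.7%), of which 32 had the higher share in GFP–TTP (13.3%) and 42 in GFP–TTP-AA (17.4%). Of the 610 host genes only 40 could be tested: 4 of them (10.0%) had a higher share in GFP–TTP and 14 (35.0%) in GFP–TTP-AA. With a minimum of 5 cDNAs, 28 of 98 hosts and 156 of 570 genes passed (27.4%). On the GFP–TTP side these were 12 hosts (12.2%) and 18.8% of all genes, and on the GFP–TTP-AA side 16 hosts (16.3%) and 8.60% of all genes. The difference between hosts and other genes was not tested. With the minimum of 10 cDNAs, the 4 hosts on the GFP–TTP side were Spp1, encoding the cytokine osteopontin (47 GFP–TTP and 14 GFP–TTP-AA cDNAs, adjusted p = 1.26e-06 in the exact test), the adaptor gene Grb2 (10 and 0, adjusted p = 0.00136, exact), Nckap5l (44 and 31, adjusted p = 0.0212, exact) and Nfkbia, encoding the NF-κB inhibitor (15 and 5, adjusted p = 0.0219, exact). Spp1 and Grb2 each held a single member with 1 cDNA at 1 h.

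The 14 hosts on the GFP–TTP-AA side at 0 h included 3 genes of the actin list. Actb had 42 GFP–TTP and 140 GFP–TTP-AA cDNAs (adjusted p = 2.40e-06, exact test), Tmsb4x, encoding an actin-sequestering thymosin, had 7 and 58 (adjusted p = 1.43e-06, exact), and Actr2, encoding a subunit of the Arp complex, had 4 and 23 (adjusted p = 0.0159, exact). Fth1, the heavy chain of ferritin, had 0 listed GFP–TTP and 24 GFP–TTP-AA cDNAs, and the lactate dehydrogenase gene Ldha 0 and 18. The remaining 9 were Ctsb, Lrp1, Brd1, Pclaf, Wdr89, Tns3, Scd2, Sbno1 and Arhgdia, with 0 to 2 GFP–TTP cDNAs each. At 4 h, 17 of 25 genes passed (68.0%), 8 with the higher share in GFP–TTP (32.0%) and 9 in GFP–TTP-AA (36.0%). Only 3 hosts could be tested there: Actb was higher in GFP–TTP (52 and 18 cDNAs, adjusted p = 2.18e-05, exact), Tmsb4x was higher in GFP–TTP-AA (0 and 12, adjusted p = 0.00114, exact), and Tfrc did not pass (10 and 4, adjusted p = 0.131, exact). Actb, which carried 4 members at 18 to 22 nt from a GFP–TTP-AA site, therefore leaned to opposite sides at 0 h and 4 h, a difference that was not tested.

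Turning to the host genes, the selection fixes that members lack a nearby partner, so the 1 h values of the genes are given as description. Of the 610 hosts, 464 (76.1%) had no other GFP–TTP 3′UTR site, and 146 held shared sites too. GFP–TTP-AA had no listed 3′UTR cDNA in 178 of them (29.2%), and the other hosts reached up to 1674 GFP–TTP-AA cDNAs, in Mdm2. The median over all hosts was 7.00 GFP–TTP-AA cDNAs, against 28.0 in the 685 target genes without a member. Most genes held few members: 79 had 1, 55 had at least 5, and the median was 2.00.

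Lyz2, encoding lysozyme, an abundant macrophage product, held most member cDNAs, 15 at 12 sites. They formed a pair of clusters, at chr10:117277757-117277779 with 8 cDNAs and at chr10:117277692-117277716 with 7. Lyz2 held 68 GFP–TTP and 143 GFP–TTP-AA cDNAs in its 3′UTR, so members were 22.1% of its GFP–TTP 3′UTR cDNAs, and its 12 member windows held none of these 3 pentamers. Atf1 came next with 12 cDNAs at 8 sites, which were all of its GFP–TTP 3′UTR cDNAs, against 4 GFP–TTP-AA cDNAs at least 638 nt away. In Arpc2, which encodes a subunit of the actin-nucleating Arp complex, 7 members with 9 cDNAs lay next to an A run, 17 to 34 nt from the nearest GFP–TTP-AA site, in a 3′UTR with 99 GFP–TTP-AA cDNAs at 59 sites.

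The next genes differed in how their members were spread. In Reep3, encoding an endoplasmic reticulum protein, 9 members of 1 cDNA each were scattered between 2306 and 4283 nt into a 3′UTR of 4541 nt, and in Ssr1, a gene of the translocon, 9 lay between 373 and 3233 nt. The 8 members of Nufip2, by contrast, lay between 2217 and 2225 nt, and all 8 had both UGUGU and UUUUU nearby. Gnas, encoding a stimulatory G protein subunit, had 8 members of which 3 had AUUUA nearby. Of the remaining 3 genes among the leading 10, each with 7 members and 8 cDNAs, the cyclin D1 gene Ccnd1 had no shared site and 71 GFP–TTP-AA cDNAs, Atp5a1, the alpha subunit of ATP synthase, had 23 GFP–TTP-AA cDNAs, and Ncl, encoding nucleolin, had 19. Ties in this ranking were broken by the number of sites and then by name, which left out Slc38a2 and Ywhag with 8 cDNAs at 6 sites.

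**Figure D5:**
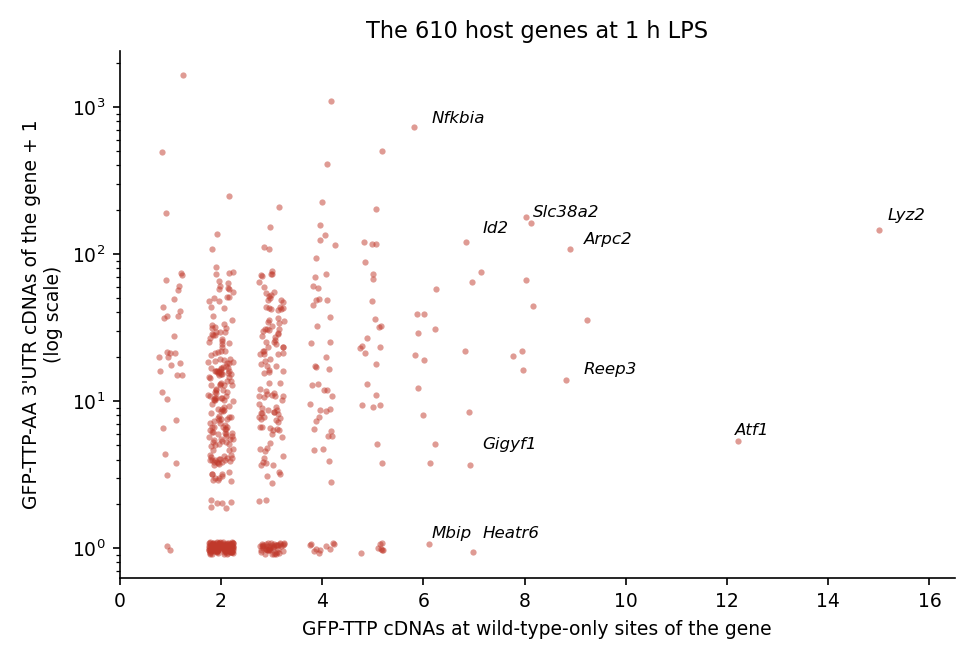
Each point is 1 of the 610 host genes, with the GFP–TTP cDNAs at its wild-type-only sites on the x axis and its GFP–TTP-AA 3′UTR cDNAs plus 1 on the y axis (log scale); points are shifted slightly at random to show overlaps. The 178 genes with no listed GFP–TTP-AA 3′UTR cDNA form the lowest row, and Lyz2 and Atf1 lie farthest to the right with 15 and 12 cDNAs.

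Among the hosts without a listed GFP–TTP-AA 3′UTR cDNA at 1 h, Heatr6 and Mbip, the latter encoding an inhibitor of a MAP kinase kinase kinase, had 6 members each, and Bend4, Cdc37 and Fbxo33 had 5 each, as did Irgq and Shtn1, which follow by name. All 6 members of Heatr6 and Mbip and all 5 of Fbxo33 had UUUUU nearby, the 5 of Bend4 had UGUGU, and in Cdc37, the gene of an Hsp90 cochaperone, the 5 members were spread between 58 and 1142 nt into the 3′UTR. Of these only Heatr6 had any cDNA in the 3′UTR at 0 h or 4 h. In the 178 genes, AUUUA was near 65 of 408 members (15.9%, interval 12.7 to 19.8), against 10.4% (8.74 to 12.2) in the other hosts. GFP–TTP had a 3′UTR site at 0 h in 6 of the 178 genes (3.37%) and GFP–TTP-AA in 7 (3.93%).

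Genes known from earlier results of these data to lean toward GFP–TTP were not all hosts. Lars2 had 291 GFP–TTP and 223 GFP–TTP-AA cDNAs, Rnf225 had 90 and 48, and Slc25a22 had 8 and 2. These genes held 0 members, since a GFP–TTP-AA site lay within 15 nt of each of their sites. Of the 90 GFP–TTP cDNAs of Rnf225, 63 lay at its leading site and all 90 within 15 nt of it. The sequence downstream of that site also occurred in a transcript of another gene model. The assignment of these cDNAs to the Rnf225 mRNA is therefore uncertain. Gigyf1 (7 cDNAs, 3 of GFP–TTP-AA) consisted of members alone, like Atf1, and in Prrg4 5 of 8 sites were members.

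Classical TTP targets were nearly free of members. Since a member has no GFP–TTP-AA site nearby, the share in a group depends on how densely those sites cover its 3′UTRs. The shares of the gene groups are therefore given as description. Of the 13 genes with a GFP–TTP 3′UTR site on a list of 29 cytokines and chemokines, only Spp1 held a member, and members were 1 of 596 sites (0.168%, interval 0.0296 to 0.944), against 23.4% over all genes. The list did not include the chemokine gene Cxcl12, whose single GFP–TTP 3′UTR site was a member. Of 8 feedback inhibitors of inflammation, 2 were hosts, Nfkbia with 6 cDNAs at 4 members in a U-rich stretch 53 to 60 nt into the 3′UTR, and Zfp36 itself with 2 cDNAs, and members were 3.12% of their sites (1.44 to 6.65). The Zfp36 sites lie in the endogenous locus, since the transgene holds no 3′UTR. Of the p53 targets 4 of 8 were hosts, Phlda3 with 3 cDNAs and Btg2 and Mdm2 with 1 each ahead of Pmaip1, and members were 2.69% of the sites. Members were 8.38% of the sites of actin and actin-binding genes, where 9 of 17 genes were hosts, led by Arpc2, Tmsb10 with 5 cDNAs and no listed GFP–TTP-AA cDNA, and Actb with 4.

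The remaining groups varied more widely. The list of immediate early transcription factors, which also holds the CREB family gene Atf1, had 3 hosts of 10 genes. These were Atf1, Klf10 with 4 cDNAs and Klf6 with 2, and 15.1% of the sites were members (9.05 to 24.2). Of these 13 members, 8 lay in Atf1, so the share rests largely on that gene. All 3 members of Klf10 had AUUUA nearby. For mRNA decay and AU-rich element binding factors, 8 of 12 genes were hosts, led by Gigyf1, the deadenylase gene Cnot6 with 5 cDNAs and its paralog Cnot6l with 3, and members were 24 of 86 sites (27.9%, 19.5 to 38.2). For the nuclear-encoded respiratory chain, 5 of 9 genes were hosts, led by Atp5a1, Ndufa10 and Uqcrc2, the latter 2 with 3 cDNAs each, and members were 16 of 31 sites (51.6%, 34.8 to 68.0). Of these 16 members, 7 lay in Atp5a1, which held 8 of the 31 sites. Mitochondrial translation had 1 host of 3 genes, Iars2 with 2 cDNAs, and 2 of 73 sites (2.74%, 0.755 to 9.45) were members. Of these 73 sites, 70 lay in Lars2, which held 0 members, so the share largely describes that gene. The 26 histone sites in 3 genes and the 3 sites in the 1 ribosomal protein gene were all shared. Over all genes, 47.1% of those with a GFP–TTP 3′UTR site were hosts.

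The cell type label was checked on the cDNAs anywhere in the marker genes. Of 10 macrophage markers, 8 had cDNAs in the GFP–TTP-AA list at 1 h (457 in all) and 4 in the GFP–TTP list (117, of which Lyz2 held 108), whereas Cd74 and Fcgr3 were without cDNAs in all lists. In the GFP–TTP-AA lists of 0 h and 4 h none of the 10 had a cDNA, and in the GFP–TTP lists of 0 h and 4 h 1 and 3 of them did. None of 12 markers of other cell types had a cDNA in any of the 6 lists.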

How the data were processed

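Each of the 6 groups had 1 list of crosslinked positions. Per the file headers the value of a site is a score, the number of unique cDNAs with the sign giving the strand, and the deposited lists are sums over the libraries of a group. The authors removed PCR duplicates by random barcodes, mapped reads to mm10 with Bowtie (annotation Ensembl 75), and kept sites at a false-discovery rate of 0.05 in iCount (100 permutations, neighborhood of 15 nt). The sources state no normalization beyond this.

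Sites were placed on GENCODE M21 transcripts (GRCm38, the mm10 assembly) in Python 3.11.15 (scipy 1.17.1, numpy 2.4.6 and pandas 2.3.3), giving the 3′UTR precedence over other regions and choosing the longest 3′UTR that contains the site, with 1-based coordinates. Windows were read from the GENCODE transcript sequences, of which 21028 genes had a 3′UTR. Motifs were searched in the sense strand wholly within 20 nt, overlaps between motifs counting under each. Members and gene lists were chosen with earlier results of these data known, and the lists are described by counts alone. With 1 pooled list per group no test was made except the per-gene Fisher test at 0 h and 4 h, which was tested on simulated data. No unchanged simulated list exceeded the nominal error, but most of the changed genes went uncalled, so a gene that did not pass may still differ. The simulated cDNAs were drawn independently of each other, as the test itself assumes. The simulation therefore leaves out clustered cDNAs and variation between libraries, and it does not show the error rate in the real lists. Named genes were the 10 leading host genes by cDNAs, 5 leading hosts without GFP–TTP-AA cDNAs, the 10 leading members, 5 leading members found again at 0 h and at 4 h, 3 sites on each side of the distance limit, 3 per gene list, the hosts past a test, and 6 genes known beforehand. Ties among genes were broken by sites and then name, and among sites by member cDNAs within 15 nt and then position. The definition of simple repeats and the example sites were chosen after values were seen. No genome sequence was used, so the planned search for genomic copies was replaced by a search of the transcripts of other genes.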

Additional observations from a re-analysis of the deposited data

How the results depend on the processing

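No paired analysis was possible because each list is a sum over libraries and carries no replicate number, and for the same reason no replicate could be left out. Of 103 alternatives, 68 left their value within its 95% interval or, for counts, within 1.5 times. The number of members was 3656 (54.0% of sites, 1203 genes) when only the same nucleotide counted as shared, and 28.3%, 20.8% and 18.9% of sites at distances of 5, 30 and 50 nt. It was 2431 (35.9%) when a partner needed at least 2 cDNAs, 128 (10.5%, 117 genes) when GFP–TTP sites needed at least 2 cDNAs, and 641 clusters (35.4%) when sites within 15 nt were merged.

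With at least 2 cDNAs per site AUUUA was near 14.1% of members, a simple repeat near 21.9%, and 4.76% had a copy in another gene model (2.09% of all members when models over the same site were left out, chosen after seeing the data). With 1 position per cluster UGUGU was near 12.2% of members and 9.07% of shared sites, and a repeat near 22.1% and 15.3%. Both gaps were narrower than over all sites. Within 50 nt the shares of members were 22.5% for AUUUA and 27.4% for UGUGU, against 59.6% and 22.1% of shared sites. At the same nucleotide a site was found again in 1.07% (GFP–TTP 0 h), 0.694% (GFP–TTP-AA 0 h) and 0.315% (GFP–TTP 4 h) of members, and members defined at 50 nt were found again in 1.41% at 0 h. The last 50 nt held 1.20% of members. In genes with both kinds of site, a restriction chosen after seeing the data, the shares were 7.36% for AUUUA, 10.8% for UGUGU, 21.4% for repeats (22.9% of shared sites, with overlapping intervals), 1.15% for GFP–TTP-AA at 0 h and 0 for GFP–TTP at 4 h. The cause of these shifts was not tested. The gene test called 156 genes at 0 h and 51 at 4 h with at least 5 cDNAs, and 31 and 7 with each site counted once. The planned search for genomic copies was not run.

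Members with 1 cDNA can be missed in a list of other depth, and no spread between libraries can be given.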
